A study of Mus musculus with 24 samples.

Results

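The route by which liver mitochondria burn fatty acids and make ketone bodies was followed through 8 genes of a liver count table of 22355 genes. The genes were Cpt1a, Cpt2, Acadvl, Acadl, Acadm, Hadhb, Acat1 and Slc16a7, each taken by its symbol in the table, and all 8 had a row. Liver RNA came from 24 diet-induced obese mice, 8 in each of 3 groups, with each library from a different mouse. IUB288 4 h livers were collected 4 h after the last injection of a 4 d course of IUB288, which acts as an agonist at the glucagon receptor. IUB288 22 h livers came from mice given the same 4 d course and were collected 22 h after the last injection. Vehicle livers were collected 22 h after the last injection of a 4 d course of vehicle. All 3 groups were obese, and there was no vehicle group at 4 h, so in the 4 h comparison the drug and the hours since injection cannot be told apart. For the same reason a difference between IUB288 22 h and IUB288 4 h livers cannot be read as a change in the drug's effect. The sources used here do not give strain, sex, age or dose.

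Long-chain fatty acids enter mitochondria as carnitine esters. Inside, acyl-CoA dehydrogenases matched to chain length start each round of beta-oxidation, later steps of the round cut off acetyl-CoA, and liver turns surplus acetyl-CoA into ketone bodies for export. Glucagon, the fasting hormone, is known to favour this route in liver, and malonyl-CoA, the product of acetyl-CoA carboxylases, is known to hold it back at the carnitine step.

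Library totals ran from 13985780 to 44070917 counts, and the 8 genes had between 1490 and 44311 counts in a library. Levels are given in CPM, counts relative to the library size after TMM scaling, and all 8 genes were among the 11508 that passed the filter on low counts. One vehicle library, replicate 1, held transcripts of another tissue. In it Ucp1, the uncoupling protein of brown fat, was at 1388 CPM, against at most 0.576 CPM in the other 23 libraries, and the muscle kinase gene Ckm was at 14.2 CPM, against 0 in all others. Summed over 10 adipocyte markers, the level was 109 to 167 CPM in IUB288 4 h livers, 32.6 to 157 CPM in IUB288 22 h livers and 75.9 to 120.0 CPM in the other 7 vehicle livers, but 4436 CPM in vehicle replicate 1, where 9 of the 10 markers were at their highest. Of 6 striated muscle markers, 5 were highest in that library, and of 6 hepatocyte markers none was. Brown fat and muscle also oxidize fatty acids, so each of the 8 genes is compared with vehicle with and without this library. In 3 further libraries, vehicle replicates 2 and 7 and IUB288 4 h replicate 8, the mitochondrially encoded ND3 was at 332 to 583 CPM, against 42.7 to 124 CPM in the other 21.

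Markers of liver cell types also differed between the groups. Hepatocyte markers summed to 50820 to 74180 CPM in IUB288 4 h livers, 39950 to 65440 CPM in IUB288 22 h livers and 69250 to 94740 CPM in the 7 vehicle livers other than replicate 1, which was at 59280 CPM. Most of that sum was albumin, Alb, with a median of 55060 CPM in the 23 libraries other than vehicle replicate 1, and Hnf4a, of the same list, was higher in treated livers, as given with the regulators. Endothelial markers had medians of 255.0, 232 and 374 CPM in IUB288 4 h, IUB288 22 h and vehicle livers (replicate 1 kept), stellate cell markers 513, 412 and 678 CPM, and cholangiocyte markers 147, 119.5 and 313 CPM. Cholangiocyte sums overlapped, at 61.2 to 248.5, 71.8 to 175.5 and 93.85 to 531 CPM, and were mostly Spp1, with a median of 145.8 CPM in the 23 libraries. Endothelial sums overlapped with vehicle too, and stellate cell sums did not. In bulk liver, fewer cells of a type and less RNA per cell cannot be told apart, and the part of these shifts in the results was not tested.

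Changes in the 8 genes were small and mixed in direction. At 4 h, 1 of the 8 was higher than in vehicle livers and 3 were lower, where 21.7% of all tested genes were called higher and 22.5% lower (limma-voom, Benjamini-Hochberg adjusted p under 0.05 over all 11508 genes). At 22 h the counts were again 1 higher and 3 lower, against 17.6% and 19.2% of all genes. Between IUB288 22 h and IUB288 4 h livers 1 of 8 was lower and none higher, against 15% and 14.3%. The number called, 4 of 8 in each comparison with vehicle, thus stood near the 44.2% and 36.8% of all genes called in either direction. Their median log2 fold change was -0.16 at 4 h and -0.18 at 22 h, beside -0.07 and -0.02 for all genes. Without vehicle replicate 1 that median was -0.02 at 4 h and -0.12 at 22 h, beside -0.05 and -0.007 for all genes. The counts in that fit were 2 higher and 2 lower at 4 h, against 22.3% and 21.7% of all genes, and 3 higher and 3 lower at 22 h, against 17.8% and 18.8%. In IUB288 22 h against IUB288 4 h livers that fit called 2 lower and none higher, against 16.9% and 15.2%. Leaving out the 3 libraries of high ND3 gave 0 higher and 3 lower at 4 h (19.8% and 20.2% of all genes), 1 and 3 at 22 h (16.3% and 18.6%), and none between the times (13.4% and 14.3%). Leaving out those 3 and vehicle replicate 1 gave 2 higher and 2 lower at 4 h (20.6% and 19.1%), 4 and 3 at 22 h (16.1% and 18.1%), and 0 and 2 between the times (14.5% and 16.9%). The 4 higher at 22 h include Acadvl, whose 4 highest libraries are those left out. With all libraries 1 gene, Acat1 at 4 h, had groups that did not overlap, being lower in all 8 treated livers, as were 6.17% of all genes. None was higher in all 8 at 4 h (9.91% of all genes), higher or lower in all 8 at 22 h (4.20% and 3.22%), or between the times (4.72% and 5.98%). Both comparisons use the same vehicle livers, so a change shared by them is not seen a second time in independent controls.

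**Figure D1:**
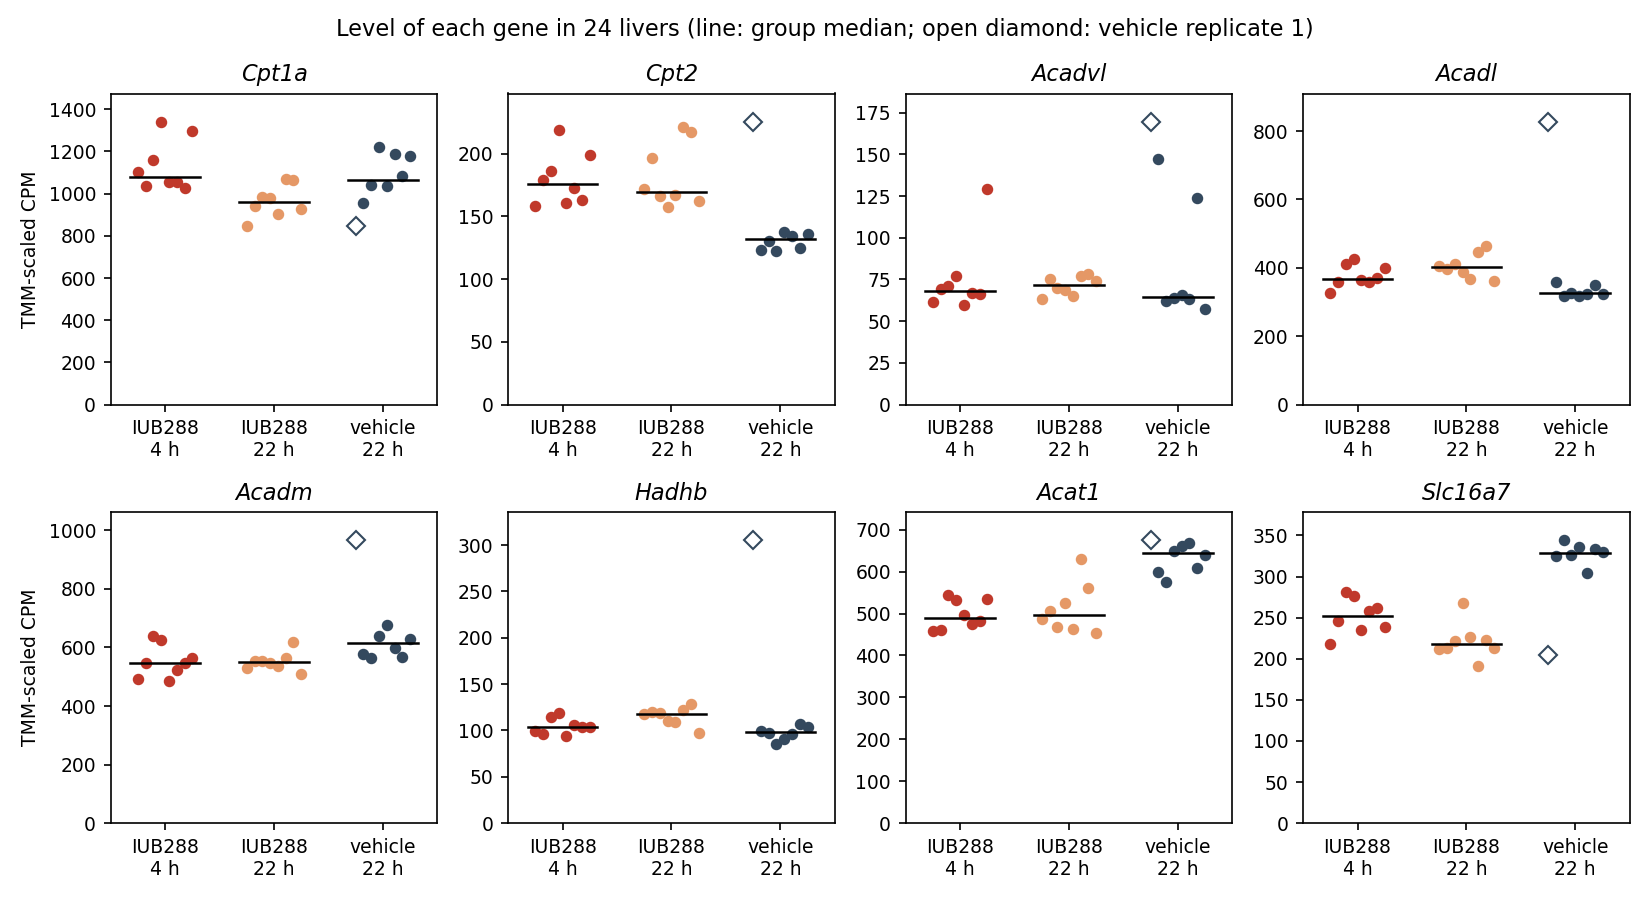
Level of each of the 8 genes in all 24 livers (1 point per liver, TMM-scaled CPM on a linear axis from 0, black line the median of 8), with IUB288 4 h, IUB288 22 h and vehicle livers side by side and vehicle replicate 1 as an open diamond. Cpt2 in treated livers sits above the 7 other vehicle livers, Slc16a7 sits below them, Acat1 does so in all treated livers but 1 at 22 h, and the diamond lies apart in Acadl at 827 CPM and in Hadhb at 305 CPM.

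The 2 carnitine palmitoyltransferases differed. Cpt1a makes the carnitine ester on the outer mitochondrial membrane and is the enzyme malonyl-CoA inhibits. Cpt2 turns the ester back into acyl-CoA on the inner membrane. The 250 bases before a RefSeq transcript start of each gene (GRCm38.p6) are shown because these partners of 1 shuttle moved differently. Cpt1a lies on the plus strand, with its window at chr19:3323051-3323300, and Cpt2 on the minus strand, with its window at chr4:107923590-107923839. The Cpt1a window lies inside the gene, whose span begins at chr19:3322326, so the start used for it is not the first base of the gene. Capitals mark TGACCT, the reverse complement of AGGTCA, the hexamer that many nuclear receptors bind.
Cpt1a: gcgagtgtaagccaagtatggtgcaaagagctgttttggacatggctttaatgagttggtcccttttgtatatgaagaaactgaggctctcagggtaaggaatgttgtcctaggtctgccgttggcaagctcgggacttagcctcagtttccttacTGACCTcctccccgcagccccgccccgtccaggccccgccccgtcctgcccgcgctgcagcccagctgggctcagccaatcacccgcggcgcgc
Cpt2: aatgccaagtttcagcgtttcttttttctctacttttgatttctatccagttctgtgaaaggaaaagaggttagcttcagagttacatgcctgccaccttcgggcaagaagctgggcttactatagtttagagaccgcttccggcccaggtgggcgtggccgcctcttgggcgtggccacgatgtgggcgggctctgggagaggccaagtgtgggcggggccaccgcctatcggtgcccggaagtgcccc
The Cpt1a window held this hexamer from 94 to 89 bases before the start, as did 14% of 32851 mouse promoter windows on either strand. The other motifs searched on both strands were the cAMP response element TGACGTCA, its core TGACG and the PPAR element known as DR1, a pair of AGGTCA hexamers with 1 base between them, which overlaps the AGGTCA search. They were in 1.55%, 17.8% and 0.0335% of windows, and the Cpt2 window held no match to any of the 4. GC content was 59.6% in the Cpt1a window and 56.8% in the Cpt2 window, and its median over all windows was 52.4%.

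Cpt1a, from chr19:3322326-3385735 on the plus strand (RefSeq span, Entrez 12894), stayed near its vehicle level at 4 h and was lower at 22 h than at 4 h. Its CPM was 1026 at lowest, 1078 at the median and 1340 at highest in IUB288 4 h livers, 848, 959 and 1069 in IUB288 22 h livers, and 844, 1064 and 1222 in vehicle livers. All 3 groups overlapped, with IUB288 4 h replicate 4 highest and vehicle replicate 1 lowest. Means were 1133 ± 122 CPM in IUB288 4 h livers, 965 ± 76.5 in IUB288 22 h livers and 1069 ± 128 in vehicle livers (SD, n = 8 each). Against IUB288 4 h livers, Cpt1a fell by 0.23 ± 0.07 (SE) on the log2 scale in IUB288 22 h livers (limma-voom adjusted p = 0.0216), and all 8 lay under the IUB288 4 h mean. That call was lost when IUB288 4 h replicate 4 or 8 was left out, the higher adjusted p being 0.0504, and also with no filter, a stricter filter or the 3 high-ND3 libraries left out, with an adjusted p of at most 0.0707. Against vehicle its log2 fold change was 0.09 at 4 h (95% interval -0.07 to 0.24, limma-voom adjusted p = 0.365) and -0.14 at 22 h (-0.30 to 0.01, limma-voom adjusted p = 0.137). Vehicle replicate 1 was the lowest of its group, and without it Cpt1a fell at 22 h, with a log2 fold change of -0.19 (limma-voom adjusted p = 0.0334) and 0.04 at 4 h (0.655).

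Cpt2, from chr4:107903982-107923589 on the minus strand (Entrez 12896), rose at both times. It had 158, 176 and 219 CPM at lowest, median and highest in IUB288 4 h livers, 157.5, 169.7 and 221 CPM in IUB288 22 h livers, and 123, 132 and 225.5 CPM in vehicle livers. The highest value was that of vehicle replicate 1, and the next vehicle liver was at 138 CPM, below all 16 treated livers. With all libraries its log2 fold change was 0.36 ± 0.11 (SE) at 4 h and 0.38 ± 0.11 at 22 h (adjusted p = 0.00684 and 0.00619, limma-voom), a rise of 28.7% and 30.4%. In the fit that left vehicle replicate 1 out, Cpt2 was at 0.46 ± 0.08 and 0.48 ± 0.08 (limma-voom adjusted p = 3.01e-05 and 4.21e-05), and treated and vehicle livers did not overlap at either time. Groups that did not overlap in this direction were found in 11.7% of all genes at 4 h and 5.04% at 22 h, counted without that library. The call at 4 h was lost when the 3 libraries of high ND3 were left out and vehicle replicate 1 kept (log2 fold change 0.29, limma-voom adjusted p = 0.057). Between IUB288 22 h and IUB288 4 h livers the difference was 0.02 (95% interval -0.20 to 0.24).

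**Figure D2:**
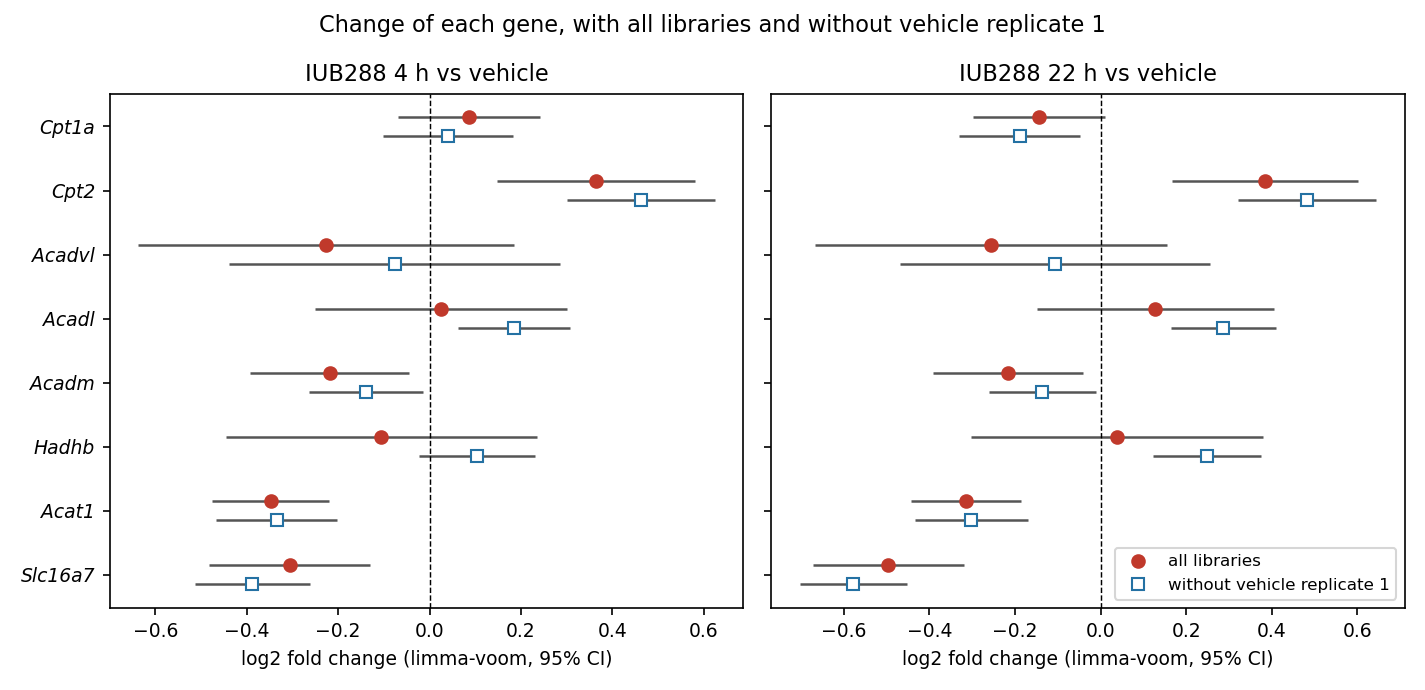
Log2 fold change of each gene with its 95% confidence interval (limma-voom), in IUB288 4 h against vehicle livers on the left and IUB288 22 h against vehicle livers on the right, with all libraries (filled circles) and without vehicle replicate 1 (open squares). Acadl and Hadhb move to the right and their intervals narrow without that library, whereas Acat1 keeps its place, at -0.35 and -0.33 at 4 h.

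The acyl-CoA dehydrogenases start each round of beta-oxidation, and which of them passed the test depended on vehicle replicate 1. Acadvl works on very long chains, Acadl on long chains and Acadm on medium chains. Windows of Acadl (chr1:66863310-66863559, minus strand) and Acadm (chr3:153944644-153944893, minus strand) are shown, since Acadm passed the test with vehicle replicate 1 kept and Acadl with it left out. Both are the 250 bases before the RefSeq start on GRCm38.p6. Capitals mark TGACCT, the AGGTCA hexamer on the opposite strand, and CGTCA, the reverse complement of the cAMP response element core TGACG.
Acadl: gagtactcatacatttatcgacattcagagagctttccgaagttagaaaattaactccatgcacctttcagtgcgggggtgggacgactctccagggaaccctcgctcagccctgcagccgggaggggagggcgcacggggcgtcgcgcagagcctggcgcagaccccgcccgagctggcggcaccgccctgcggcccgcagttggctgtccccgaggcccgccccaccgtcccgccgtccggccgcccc
Acadm: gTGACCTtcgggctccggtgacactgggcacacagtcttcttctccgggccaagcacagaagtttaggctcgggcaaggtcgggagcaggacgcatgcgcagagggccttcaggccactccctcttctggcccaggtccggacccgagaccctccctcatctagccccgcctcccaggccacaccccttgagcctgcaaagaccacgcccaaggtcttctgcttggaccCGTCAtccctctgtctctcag
The Acadm window held the hexamer from 249 to 244 and the core from 21 to 17 bases before the start. None of the 4 motifs matched in the Acadl window, whose GC content was 68% with 25 CpG dinucleotides, against medians of 52.4% and 6 over all windows. Of the other members with a window, Acadvl held the hexamer AGGTCA on its own strand from 87 to 82 bases before the start, and Hadhb held no match. A match here is a match of letters and says nothing of binding.

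Acadl (chr1:66830839-66863309, minus strand, Entrez 11363) was set apart by 1 library. Its CPM was 327 at lowest, 367.5 at the median and 426 at highest in IUB288 4 h livers, 361, 401 and 463 in IUB288 22 h livers, and 316.5, 326 and 827 in vehicle livers. Vehicle replicate 1 held the 827 CPM, and the next vehicle liver was at 359.8 CPM, below all 8 IUB288 22 h livers. With all libraries the log2 fold change was 0.03 (95% interval -0.25 to 0.30) at 4 h and 0.13 (-0.15 to 0.40) at 22 h, with limma-voom adjusted p = 0.895 and 0.482. With that library left out, Acadl rose by 0.18 ± 0.06 (SE) at 4 h and 0.29 ± 0.06 at 22 h (limma-voom adjusted p = 0.0144 and 0.000634), or by 13.6% and 22.0%. IUB288 22 h livers and the 7 vehicle livers then did not overlap, as in 5.04% of all genes in this direction, and 7 of 8 IUB288 4 h livers lay above the vehicle mean.

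Acadm (chr3:153922353-153944643, minus strand, Entrez 11364) went the other way. It had 485, 546 and 639 CPM at lowest, median and highest in IUB288 4 h livers, 510.3, 549.6 and 617 CPM in IUB288 22 h livers, and 563, 614 and 966 CPM in vehicle livers. The groups overlapped, and vehicle replicate 1 was again highest, with the next vehicle liver at 678 CPM. Acadm fell by 0.22 ± 0.08 (SE) on the log2 scale at both times (limma-voom adjusted p = 0.0388 at 4 h and 0.0479 at 22 h). Leaving it out gave a log2 fold change of -0.14 at both times (95% interval -0.26 to -0.01), and neither passed the test (limma-voom adjusted p = 0.0657 and 0.0812). Leaving out each of the 24 libraries in turn kept the call in 15 cases at 4 h and 8 at 22 h, with an adjusted p of at most 0.0841.

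Acadvl (chr11:70010183-70015428, minus strand, Entrez 11370) was high in 4 libraries of both kinds. Its CPM was 59.95 at lowest, 68.0 at the median and 129.5 at highest in IUB288 4 h livers, 63.4, 72 and 78.4 in IUB288 22 h livers, and 57.1, 64.7 and 169.5 in vehicle livers. IUB288 4 h replicate 8 (129.5 CPM) and vehicle replicates 1, 2 and 7 (169.5, 147 and 124 CPM) stood above the other 20 libraries, which lay between 57.1 and 78.4 CPM. With all libraries its log2 fold change was -0.23 (95% interval -0.64 to 0.18) at 4 h and -0.26 (-0.67 to 0.15) at 22 h, with limma-voom adjusted p = 0.370 and 0.333. With vehicle replicate 1 alone left out, Acadvl was at -0.08 and -0.11 (limma-voom adjusted p = 0.752 and 0.668). The libraries of high ND3 made up 3 of the 4, where COX3, another mitochondrially encoded gene, was also at 2460 to 4290 CPM, against 39.0 to 652 CPM in the 20 others. Without those 3 and vehicle replicate 1, Acadvl was 0.11 above vehicle at 4 h (95% interval -0.03 to 0.25) and 0.19 ± 0.06 (SE) above it at 22 h (limma-voom adjusted p = 0.191 and 0.0253). The 4 libraries left out are the 4 highest in Acadvl, and 3 of them are vehicle, so the choice itself lowers the vehicle level. The call at 22 h can therefore not be read as a rise of Acadvl. What set the libraries of high ND3 apart was not tested. Exons of Acadvl overlap those of Dvl2 on the other strand, and with no strand setting known for the counting, reads of the 2 genes cannot be told apart.

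**Figure D3:**
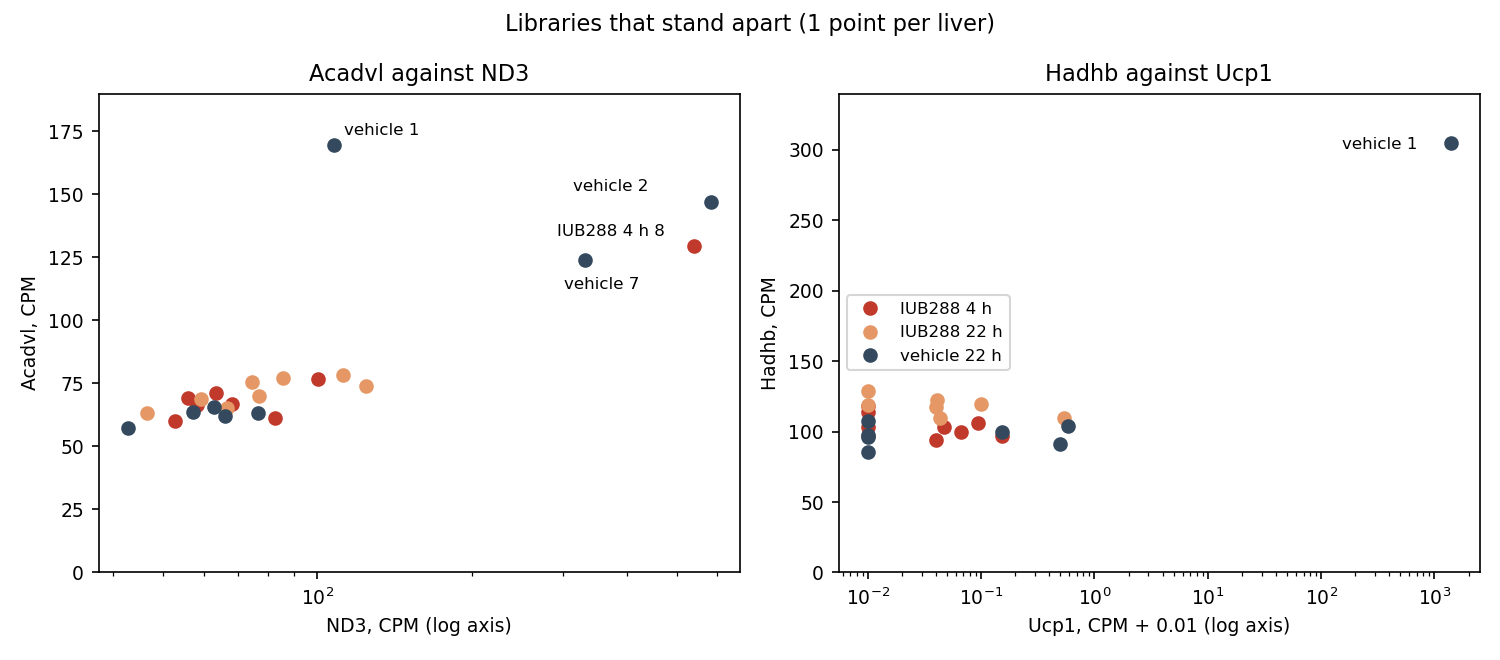
Levels in each of the 24 livers, with Acadvl against the mitochondrially encoded ND3 (log axis) on the left and Hadhb against the brown fat gene Ucp1 (CPM + 0.01, log axis) on the right, coloured by group. On the left, IUB288 4 h replicate 8 and vehicle replicates 2 and 7 lie to the upper right, and on the right vehicle replicate 1 stands alone at 1388 CPM of Ucp1 and 305 CPM of Hadhb.

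Hadhb (chr5:30155253-30184593, plus strand, Entrez 231086) codes for the subunit of the mitochondrial trifunctional protein that carries the thiolase step, the last of each round. It had 94.1, 103 and 118 CPM at lowest, median and highest in IUB288 4 h livers, 97.2, 118 and 129 CPM in IUB288 22 h livers, and 85.7, 98.5 and 305 CPM in vehicle livers. Vehicle replicate 1 was 3.13 times the mean of the other 7 vehicle livers, the furthest of any of the 8 genes. The log2 fold change was -0.11 (95% interval -0.45 to 0.24) at 4 h and 0.04 (-0.30 to 0.38) at 22 h with all libraries. Hadhb rose at 22 h once that library was left out, by 0.25 ± 0.06 (SE), or 18.8% (limma-voom adjusted p = 0.00278), and the value at 4 h was 0.10 (limma-voom adjusted p = 0.175). All 8 IUB288 22 h livers lay above the vehicle mean of log2 CPM, though the lowest, at 97.2 CPM, was just under the vehicle mean of 97.37 CPM. Hadha, which codes for the other subunit, was not analysed here.

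Acat1 (chr9:53580522-53610350, minus strand, Entrez 110446) codes for mitochondrial acetoacetyl-CoA thiolase, which joins acetyl-CoA units at the entry to ketone body synthesis and also serves ketone use and isoleucine breakdown. Its level was 458, 490 and 544 CPM at lowest, median and highest in IUB288 4 h livers, 454, 496 and 629 CPM in IUB288 22 h livers, and 575, 644 and 675 CPM in vehicle livers. Every IUB288 4 h liver lay below every vehicle liver, a pattern 6.17% of all genes shared, whereas 1 IUB288 22 h liver, replicate 6, reached into the vehicle range. Means were 498 ± 34.8 CPM in IUB288 4 h livers, 511.5 ± 59.4 in IUB288 22 h livers and 634 ± 36.1 in vehicle livers (SD, n = 8 each). Acat1 fell, with log2 fold changes of -0.35 ± 0.06 (SE) at 4 h and -0.31 ± 0.06 at 22 h (limma-voom adjusted p = 6.41e-05 and 0.000389). The decrease was of the same size without vehicle replicate 1, at -0.33 and -0.30 (limma-voom adjusted p = 0.000132 and 0.000736). IUB288 22 h livers differed from IUB288 4 h livers by 0.03 (95% interval -0.09 to 0.16).

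Slc16a7 (chr10:125219270-125389586, minus strand, Entrez 20503) codes for the monocarboxylate transporter MCT2, which carries pyruvate, lactate and ketone bodies across the plasma membrane. It showed the largest decrease of the 8 genes at 22 h. The lowest, median and highest CPM were 218, 252 and 281 in IUB288 4 h livers, 191, 218 and 268 in IUB288 22 h livers, and 204, 328 and 344 in vehicle livers. Here vehicle replicate 1 was the low one, and the other 7 vehicle livers, at 305 CPM or more, lay above all 16 treated livers. With all libraries Slc16a7 fell, with log2 fold changes of -0.31 ± 0.09 (SE) at 4 h and -0.50 ± 0.09 at 22 h (limma-voom adjusted p = 0.00536 and 8.33e-05). Its log2 fold changes without vehicle replicate 1 were -0.39 ± 0.06 and -0.58 ± 0.06 (limma-voom adjusted p = 1.11e-05 and 8.91e-08), and levels changed by -23.6% and -33%. Groups that did not overlap in this direction made up 7.77% of all genes at 4 h and 4.01% at 22 h, counted without that library. Against IUB288 4 h livers, IUB288 22 h livers were at -0.19 ± 0.08 (SE), which missed the threshold (limma-voom adjusted p = 0.0966) but passed it without vehicle replicate 1 (0.0134), or without IUB288 22 h replicate 4, the highest of its group. A gene model on the other strand, Gm47862, shares exon bases with Slc16a7, and reads from the shared bases cannot be told apart.

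Per kilobase of the principal transcript (GENCODE M21), levels of the 8 genes spanned about 1 order of magnitude. In the 7 vehicle livers other than replicate 1, Acadm stood highest at 296 ± 20.9 CPM per kb, then Cpt1a at 255 ± 22.6, Acat1 at 185 ± 10.2, Acadl at 172.5 ± 8.63, Cpt2 at 54.8 ± 2.68, Hadhb at 47.5 ± 3.56, Acadvl at 38.4 ± 16.7 and Slc16a7 at 29.9 ± 1.11 (SD, n = 7). Mean ± SD ranges overlapped for the neighbours Acadm and Cpt1a, Acat1 and Acadl, Hadhb and Acadvl, and Acadvl and Slc16a7. In IUB288 4 h livers Acadl, at 196 ± 17.1 CPM per kb, stood above Acat1, at 146 ± 10.2, and in IUB288 22 h livers they were at 211 ± 18.4 and 150.4 ± 17.5 (SD, n = 8 each). The order depends on the length used. Per kilobase of all exons of the gene, Hadhb in IUB288 4 h livers was at 15.8 CPM per kb instead of 50.96, and Acadm at 141 instead of 269.

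Among livers of the same group, many of the 8 genes varied together. Deviations of log2(CPM + 1) from group means had a median Pearson r of 0.43 over the 28 gene pairs in 23 libraries, vehicle replicate 1 left out, with a range of -0.10 to 0.74. The closest pairs were Acadl with Hadhb (0.74), Cpt2 with Acat1 (0.74) and Cpt2 with Acadl (0.70). Cpt2 and Acat1 thus varied in parallel within groups while their group means moved in opposite directions. The lowest values were those of Slc16a7, at -0.10 with Cpt2, -0.04 with Acat1 and -0.025 with Acadvl, and of Acadvl with Acadm, at -0.005, though Slc16a7 reached 0.40 with Acadm and Acadvl 0.52 with Acadl. With all 24 libraries Acadl and Hadhb reached 0.97, the value that includes the library where both were highest. These values are descriptions, and the points share library size and liver. The median over all gene pairs was not taken, so 0.43 cannot be read as a trait of these genes. All were computed on TMM-scaled CPM. In IUB288 4 h livers the SD of Cpt1a was 121.5 CPM with TMM and 69.0 on library totals, and that of Slc16a7 was 21.45 and 21.02. The part of the scaling in these correlations was not tested.

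Over all 24 libraries, the genes of at least 5 CPM most like each of the 8 in log2(CPM + 1) were found by Pearson r. Cpt1a was nearest to Dpp4 (0.83), Dennd5b (0.81) and Nr1i2 (0.80), and Cpt2 to Bckdha (0.93), Cox4i1 (0.91) and Etfb (0.90). Acadvl was nearest to Tapbp (0.89), Pdhx (0.88) and Itpr2 (0.87), and Acadl to Hadhb (0.96), Idh3b (0.95) and Cox6a1 (0.94). For Acadm these were Plaat3 (0.88), Lipe (0.88) and Gnas (0.85), and for Hadhb Acadl (0.96), Uqcrc1 (0.95) and Slc1a5 (0.93). Acat1 was nearest to Tlcd2 (0.92), Pex19 (0.91) and Decr2 (0.91), and Slc16a7 to Siae (0.90), Lyplal1 (0.87) and Cyp2c38 (0.86). These lists rest in part on vehicle replicate 1. Left out, it changed all 3 nearest genes of Cpt2, Acadvl, Acadl and Acadm, which then included Vtn (0.94) and Serpina1d (0.94) for Cpt2, and were ND3 (0.96), Tpt1 (0.95) and Rpl5 (0.95) for Acadvl. For Acadl they became ND1 (0.93), ND2 (0.92) and Atp5pb (0.91), and for Acadm Cyp2c37 (0.83), Pex16 (0.79) and Bnip3 (0.79). For Cpt1a, Hadhb, Acat1 and Slc16a7 1 of the 3 stayed, namely Dpp4, Acadl, Decr2 and Cyp2c38.

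Other genes of the route were taken from 6 lists of 98 genes, of which 67 had a row and 65 passed the filter. At 4 h 12 of the 65 were higher than in vehicle livers, 24 lower and 29 not called, and at 22 h 12 were higher, 19 lower and 34 not called. Over all tested genes 21.7% were called higher and 22.5% lower at 4 h, and 17.6% and 19.2% at 22 h, the shares against which the counts of each list below also stand. Without vehicle replicate 1, 13 of the 65 were higher and 27 lower at 4 h, and 14 and 22 at 22 h, where 22.3% and 21.7%, and 17.8% and 18.8%, of all genes were called. The median log2 fold change of the 65 with all libraries was -0.12 at 4 h and -0.16 at 22 h, beside -0.07 and -0.02 for all genes. IUB288 22 h livers had 8 genes higher, 11 lower and 46 not called against IUB288 4 h livers, where 14.3% and 15% of all genes were called. Slc25a20, Mlycd, Acaa2, Echs1, Etfdh, Bdh1, Ehhadh and Fgf21, drawn up with these lists, were not analysed here. The values that follow are from all libraries, except where the fit without vehicle replicate 1 is named. That fit gave the genes named from these lists the same calls against vehicle, apart from Rxra, which was also called lower at 4 h (-0.14, limma-voom adjusted p = 0.0422). Of the named genes, Slc16a6 shares exon bases with Amz2 and Arsg, Acsl5 with Zdhhc6, Acsm3 with Eri2, Acsm5 with Pdilt and Ucp2 with Dnajb13. These neighbours lie on the other strand, and reads from the shared bases cannot be told apart.

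Around the carnitine step, 1 of 6 tested genes was higher and 3 lower at both times. Slc22a5, the plasma membrane carnitine carrier, averaged 79.0 ± 16.01 CPM in IUB288 4 h livers, 50.3 ± 6.31 in IUB288 22 h livers and 41.1 ± 3.68 in vehicle livers (SD, n = 8 each). It rose by 0.92 log2 units at 4 h and by 0.28 at 22 h (limma-voom adjusted p = 3.55e-08 and 0.0291), and fell by 0.64 in IUB288 22 h against IUB288 4 h livers (limma-voom adjusted p = 1.14e-05). Acacb, the mitochondrial acetyl-CoA carboxylase whose malonyl-CoA inhibits Cpt1a, averaged 151 ± 36.1 CPM in IUB288 4 h livers, 74.96 ± 15.3 in IUB288 22 h livers and 313 ± 149 in vehicle livers, where replicate 1 had 643 CPM. It fell, with log2 fold changes of -0.96 at 4 h and -1.96 at 22 h (limma-voom adjusted p = 0.00032 and 5.13e-08). Acacb without vehicle replicate 1 was at -0.80 and -1.80, still past the threshold (0.000321 and 1.39e-08).

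In fatty acid uptake and activation 1 of 12 tested genes was higher and 4 lower at 4 h, and 2 were higher and 3 lower at 22 h. Acsl4, an acyl-CoA synthetase that favours polyunsaturated chains, averaged 428 ± 58.4 CPM in IUB288 4 h livers, 365 ± 93.2 in IUB288 22 h livers and 205 ± 47.4 in vehicle livers (SD, n = 8 each), with log2 fold changes of 1.08 and 0.82 (adjusted p = 1.39e-06 and 0.000121, limma-voom). Acsl5, another long-chain synthetase, had log2 fold changes of -0.65 and -1.04 (adjusted p = 1.33e-05 and 3.07e-08, limma-voom), with means of 540.5 ± 92.0, 409.7 ± 55.1 and 841 ± 118 CPM in the same order of groups. The medium-chain synthetase genes Acsm3 and Acsm5 were at -0.59 and -0.32 at 4 h (adjusted p = 2.39e-06 and 0.00424, limma-voom). Acsm5 was higher by 0.40 in IUB288 22 h than in IUB288 4 h livers (limma-voom adjusted p = 0.000894).

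Of 10 other beta-oxidation and electron transfer genes, 2 were higher and 4 lower at each time. Hadh, the dehydrogenase of the step after hydration for shorter chains, averaged 420 ± 24.8 CPM in IUB288 4 h livers, 421 ± 41.0 in IUB288 22 h livers and 587 ± 88.6 in vehicle livers (SD, n = 8 each). It fell by 0.47 log2 units at both times (limma-voom adjusted p = 9.09e-06 and 2.18e-05), and treated and vehicle livers did not overlap. Eci1, an isomerase for unsaturated chains, fell as well, at -0.68 and -0.54 (adjusted p = 8.24e-06 and 0.000287, limma-voom). Acot2, a mitochondrial thioesterase that frees fatty acids from CoA, rose, at 0.94 and 1.29 (adjusted p = 0.000844 and 4.16e-05, limma-voom). Acot2 has near-identical neighbours in its gene family, so its counts are uncertain.

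Of the genes for ketone body synthesis, use and export, 6 were tested. Slc16a6, a monocarboxylate transporter linked in zebrafish to ketone body export from liver, was not called against vehicle. It was at 0.24 at 4 h and -0.23 at 22 h (limma-voom adjusted p = 0.156 and 0.212). In IUB288 22 h against IUB288 4 h livers Slc16a6 was at -0.46 (limma-voom adjusted p = 0.0123), with means of 6.00 ± 1.29 and 8.16 ± 1.19 CPM. The vehicle mean, 7.07 ± 1.35 CPM, lay between these.

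**Figure D4:**
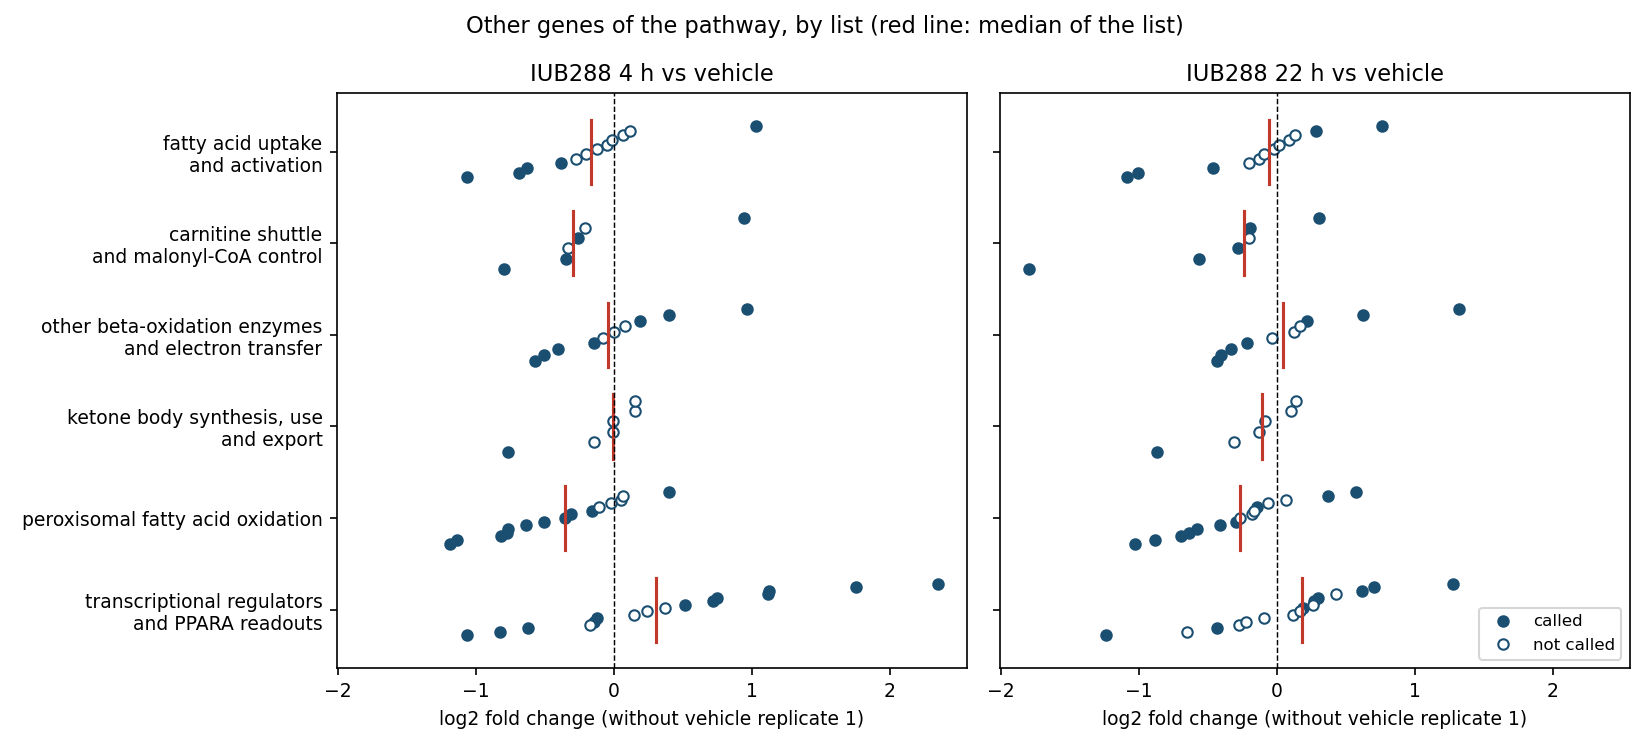
Log2 fold change of each tested gene of the 6 lists without vehicle replicate 1, in IUB288 4 h against vehicle livers on the left and IUB288 22 h against vehicle livers on the right (filled points passed the test, open points did not, red bar the median of the list). The peroxisomal list has its median at -0.36 at 4 h and -0.26 at 22 h, and the regulator list reaches furthest right at 4 h, with Ppargc1a at 2.35.

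Peroxisomal fatty acid oxidation, the parallel route for very long and branched chains, had 1 of 15 tested genes higher and 9 lower at 4 h, and 2 higher and 6 lower at 22 h. Leaving out vehicle replicate 1, the lower ones numbered 10 and 8. Pex11a, which promotes peroxisome division, averaged 128 ± 14.4 CPM in IUB288 4 h livers, 139 ± 18.3 in IUB288 22 h livers and 272 ± 43.3 in vehicle livers (SD, n = 8 each), with log2 fold changes of -1.08 and -0.97 (adjusted p = 1.96e-09 and 4.39e-08, limma-voom). Abcd2, a peroxisomal importer of very long chains, fell by 0.84 at 4 h (limma-voom adjusted p = 3.64e-06), was at -0.20 at 22 h (0.19), and was 0.64 higher in IUB288 22 h than in IUB288 4 h livers (0.000207). The related importer gene Abcd3 was at -0.24 in that last comparison (limma-voom adjusted p = 0.0137). Phyh, which starts the breakdown of phytanic acid, rose, at 0.41 and 0.58 (adjusted p = 0.00109 and 4.3e-05, limma-voom).

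Among 16 transcriptional regulators and readouts of PPARA, 7 were higher and 3 lower at 4 h, and 5 higher and 2 lower at 22 h. Leaving out vehicle replicate 1 gave 7 higher and 5 lower at 4 h, and 6 and 2 at 22 h. Ppargc1a, a coactivator of oxidative genes, averaged 137 ± 43.5 CPM in IUB288 4 h livers, 28.2 ± 2.93 in IUB288 22 h livers and 27.3 ± 4.47 in vehicle livers (SD, n = 8 each). Its log2 fold change was 2.28 at 4 h (limma-voom adjusted p = 1.47e-12) and 0.04 at 22 h (0.856). Ppara, the fatty acid receptor that drives many of these genes in liver, averaged 643 ± 48.01, 736.5 ± 90.7 and 971 ± 122 CPM in IUB288 4 h, IUB288 22 h and vehicle livers, with log2 fold changes of -0.59 and -0.40 (limma-voom adjusted p = 1.49e-06 and 0.000445). Hnf4a, a hepatocyte nuclear receptor, rose, at 0.56 and 0.75 (adjusted p = 2.86e-06 and 1.18e-07, limma-voom). Rxra, the receptor partner of PPARA, was at -0.12 at 4 h and 0.29 at 22 h against vehicle (limma-voom adjusted p = 0.0813 and 0.000304). It was 0.41 higher in IUB288 22 h than in IUB288 4 h livers (limma-voom adjusted p = 2.61e-06). Ucp2, a mitochondrial carrier, was at -1.1 and -1.27 (adjusted p = 2.16e-07 and 9.12e-08, limma-voom).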

How the data were processed

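The authors' deposited liver table held whole-number read counts per gene by Entrez number, recorded here under another unit name because an automated unit check did not read its quoted, space-separated layout as counts. For the same reason the planned edgeR and DESeq2 fits were not run, and limma-voom was the test. RNA was extracted from frozen liver, and libraries were made with an mRNA kit, per the labels' protocols. The submitters' processing notes name cutadapt, GSNAP and GRCm38. Tool versions are not given in the sources used here, nor are the counting tool, its annotation and whether it used strand. The table ended at Entrez number 50932 in text order, and protein-coding genes with later numbers, 33.1% of those in RefSeq, were not analysed here.

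Library totals were 13985780 to 44070917 counts. From the counts, genes with too few reads were dropped (minimum count 10, minimum total 15), which left 11508 genes. Libraries were scaled by TMM, weighted by voom with an offset of 0.5, and fitted with limma 3.58.1 in R 4.3.3 as 1 model of 3 group means over 24 libraries with 21 residual degrees of freedom. P-values were adjusted by Benjamini-Hochberg over all genes of a comparison. The fit was tried on simulated counts with the same spread setting for all genes and no library set apart. That trial does not cover libraries such as vehicle replicate 1. Promoter sequence came from RefSeq on GRCm38.p6, with windows for 6 of the 8 genes, and gene coordinates came from RefSeq too. Strands, lengths and overlaps were taken from GENCODE M21.

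Members, gene lists and tests were chosen with earlier results of these data known. Named genes were the 8 members, the gene of smallest p in each direction, list and comparison, Ppara and Ppargc1a, and the 3 genes most like each member. Some genes that this rule names are not reported here. Alternatives were library totals alone, RLE factors, no filter, a stricter filter, the 16 libraries of a comparison, a replicate block, a factor for mouse numbers 1 to 12 against 13 to 24, and leaving out each library. Quality weights, limma-trend, leaving out libraries of high ND3 and the AGGTCA hexamer were added after the data were seen.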

Additional observations from a re-analysis of the deposited data

Results flagged for a closer look

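In 7 of 24 groups of 8 livers, 1 liver stood apart by the ratio of its gap to the range of the group, past Dixon's critical value at 95%. Chance alone marks about 1 group in 20 where values are normal. The 24 groups are 8 genes in the same livers and are not independent, so their number cannot be set against that rate. Vehicle replicate 1 accounted for 5 of the 7, as the highest in Cpt2 (ratio 0.853, 225.5 CPM), Acadl (0.915, 827 CPM), Acadm (0.715, 966 CPM) and Hadhb (0.901, 305 CPM) and the lowest in Slc16a7 (0.720, 204 CPM). It was also the library with adipocyte and striated muscle transcripts, and their part in these values was not tested. The others were IUB288 4 h replicate 8 in Acadvl (0.756, 129.5 CPM), 1 of 3 libraries of high ND3, and IUB288 22 h replicate 4 in Slc16a7 (0.533, 268 CPM). Between the treated groups with all libraries, Cpt1a was the 1 gene of the 8 called. It was at -0.23 log2 units in IUB288 22 h against IUB288 4 h livers (limma-voom adjusted p = 0.0216), a call that 8 of 11 other settings kept. Without a vehicle group at 4 h, whether the effect of IUB288 differed between the times was not tested.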

How the results depend on the processing

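The 11 settings other than leaving out 1 library called 3 to 4 of the 8 genes at 4 h and 3 to 7 at 22 h. The 7, 4 higher and 3 lower against 16.1% and 18.1% of all genes, came without vehicle replicate 1 and the 3 libraries of high ND3, an alternative chosen after seeing the data. One of them, Acadvl, was called only there, and the libraries left out were its 4 highest. Between IUB288 22 h and IUB288 4 h livers, where 1 gene was called, 0 were called with no filter, with the stricter filter and without the high-ND3 libraries. In that comparison 2 were called with its own 16 libraries, with the replicate block, with quality weights and without the high-ND3 libraries and vehicle replicate 1. On leaving out 1 library 0 to 2 were called: 0 without IUB288 4 h replicate 4 or 8, and 2 without IUB288 22 h replicate 4 or vehicle replicate 1. Acat1 and Slc16a7 kept their decreases against vehicle in all 11 settings and all 24 leave-outs at both times. Acadm was lower in all 11 settings, at -0.28 to -0.17 at 4 h and -0.27 to -0.17 at 22 h, and passed the test in 8 of them at 4 h and 6 at 22 h.

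Signs turned only in uncalled changes, except Acadvl at 22 h. Acadl at 4 h turned to -0.033 with library totals alone, -0.010 with no filter, -0.0032 with the stricter filter and -0.0070 without the high-ND3 libraries, and spanned -0.0072 to 0.18 on leaving out 1 library. With quality weights Cpt1a at 4 h was -0.010 and Hadhb 0.052. Without the high-ND3 libraries and vehicle replicate 1, values at 4 h were -0.027 for Cpt1a, 0.11 for Acadvl and 0.14 for Hadhb, and at 22 h -0.056 for Acsm5 and 0.19 for Acadvl. Leaving out 1 library spanned -0.16 to 0.10 for Hadhb at 4 h, -0.017 to 0.25 for Hadhb at 22 h and -0.014 to 0.12 for Ppargc1a at 22 h. In IUB288 22 h against IUB288 4 h livers, Acadvl was 0.00095 with library totals alone, 0.0013 with no filter, 0.0043 with the stricter filter, 0.087 without the high-ND3 libraries and 0.080 without these and vehicle replicate 1. Hadh there was 0.031 with library totals, 0.0037 with RLE factors, 0.027 with no filter, 0.034 with the stricter filter, 0.015 with 16 libraries and 0.0034 without the high-ND3 libraries. In the same comparison leaving out 1 library spanned -0.018 to 0.061 for Cpt2, -0.072 to 0.086 for Acadvl, -0.024 to 0.034 for Acadm, -0.0071 to 0.057 for Acat1 and -0.031 to 0.020 for Hadh. The cause of these shifts was not tested.

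With library totals alone the median log2 fold change of all genes at 4 h was -0.125, against -0.07 with TMM. Same-numbered libraries did not deviate together (6 of 24 pairs had r over 0.1, and 5 of 24 libraries matched their own number best), so replicate numbers were not read as a pairing. With the replicate block 3 of the 8 genes were called at 4 h, 3 at 22 h and 2 between the times. The planned edgeR and DESeq2 fits were not run.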
